A study of Mus musculus with 18 samples.

Results

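Circular RNAs (circRNAs) of 9 genes that act in histone methylation or in the Polycomb system were followed in mouse liver: Eed, Kmt2a, Ash1l, Nsd2, Asxl1, Kdm4c, Arid5b, Phf21a and Tasp1. A circRNA is a closed ring made when the end of an exon is spliced back to the start of the same or an earlier exon, and it is counted by reads that cross this back-splice junction. Of the 474 circRNAs in the deposited table, 10 came from these genes (2.11% of the table), each with its ends at annotated exon ends; 2 were from Arid5b and 1 from each other gene. The hosts were chosen by function among the circRNAs detected in the table, where each was above 0 in at least 9 of 18 libraries, and with the fitted differences between groups already known, above all those of Eed and Tasp1. Their levels and differences are therefore given as a description, and whether a circRNA was detected supports nothing here. At the edge of that detection limit were Asxl1 and both Arid5b circRNAs, above 0 in 9 libraries each, while circRNAs detected in fewer libraries were not analysed here.

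The samples were livers of 18 male C57BL/6 mice, bought at 6 weeks of age and treated for 12 weeks, with 1 library per mouse and 6 mice in each of 3 groups. Control mice had corn oil injected into the peritoneum (10 µl per g of body weight, 2 times a week) and took distilled water by mouth each day. Cirrhosis mice had the same volume of corn oil holding 10% carbon tetrachloride (CCl4), which injures hepatocytes and with repeated dosing scars the liver, and the same water. Cirrhosis-PTH mice had the CCl4 injections and, in place of the water, Pien Tze Huang (PTH), a traditional Chinese formula, at 0.25 mg per g a day. All 3 groups shared the corn oil vehicle, and the labels name no engineered allele.

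Levels are depth-scaled junction counts (CPM), and each equals a whole number of reads in its library. Libraries held 794 to 8431 such reads over the 474 circRNAs, 1 read weighed 0.0343 to 0.370 CPM, and a level of 0 allows up to 3 reads, or 0.103 to 1.11 CPM, by counting error alone. The 10 circRNAs took 839 of 38784 reads (2.16%). Of their 180 values 62 were 0 (34.4%, against 31.0% over the table) and 53 rested on 1 to 3 reads. Of the marker lists for liver cells, the hepatocyte list had 1 of 9 genes measured as a circRNA (Egfr), the stellate list 1 of 9 (Tmem56), the macrophage list 2 of 10 (Adgre1 and Mertk), the lymphocyte list 1 of 8 (Ikzf1), and the endothelial, cholangiocyte and erythroid lists 0, so the tissue label could be checked only thinly. These are whole-tissue samples, in which fewer cells of a type and less RNA per cell cannot be told apart.

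Methyl groups on histone tails mark chromatin as active or silent. Polycomb repressive complex 2 (PRC2) methylates histone H3 at K27 and keeps genes silent, and EED is its core subunit that reads the mark through a WD40 propeller. Trithorax-group enzymes such as KMT2A, which methylates H3 at K4, and ASH1L, which methylates H3 at K36, oppose that silencing, and demethylases such as KDM4C take marks away. In adult liver PRC2 is known to hold fetal and fibrosis-related genes in check.

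The junction sequences below show which exons each ring joins, since these few bases are what the reads detected. They were read from the GENCODE M21 transcripts of GRCm38 and run 5′ to 3′ along the host gene. Lower case is the end of the last exon of the ring and capitals are the start of its first exon. They span 20 bases on each side, or 15 where the first exon holds 5′ UTR.
Eed exons 9 to 11: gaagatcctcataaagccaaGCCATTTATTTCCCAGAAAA
Kmt2a exons 19 to 20: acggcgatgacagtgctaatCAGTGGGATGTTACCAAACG
Tasp1 exons 2 to 4: ctggtggaacttgagGTTGACTCCCTTTGC
Phf21a exons 2 to 6: ttgagtgagaaacagGGGACTGGAGAGCTG
Ash1l exons 8 to 10: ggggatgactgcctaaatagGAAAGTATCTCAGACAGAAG
Nsd2 exons 3 to 4: ataccaaacttaaagTGTTCTAAGAACCAA
Asxl1 exons 2 to 4: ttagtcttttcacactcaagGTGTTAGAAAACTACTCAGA
Kdm4c exons 6 to 8: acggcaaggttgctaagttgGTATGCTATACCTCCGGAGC
Arid5b exons 3 to 4: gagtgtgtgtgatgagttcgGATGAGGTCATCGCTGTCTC
Arid5b exons 6 to 7: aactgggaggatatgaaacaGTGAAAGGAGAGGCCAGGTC

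The rings were 195 to 789 bases long after splicing, with a median of 320 against 306 over the 435 circRNAs of the table that lie in 1 transcript. Their median of 3 exons equalled that of the table, and their median GC content was 45.3% against 46.0%. On the genome they reached from 488 bases (Kmt2a, 2 neighbouring exons) to 57204 (Arid5b exons 3 to 4). Of the 10, 3 held the end of the 5′ UTR with the start of the coding sequence (Nsd2, Phf21a and Tasp1), as did 56 of 435 (12.9%), and the other 7 were all coding. Of those 7, the rings of Eed, Asxl1 and Arid5b exons 6 to 7 had a length divisible by 3, against 130 of 361 all-coding rings of the table (36%). In these 3 the reading frame of the host passed the junction with no stop codon on the way round. For Asxl1 and Arid5b exons 6 to 7 that outcome was fixed, since both rings begin and end at codon boundaries of the coding sequence. Only in Eed does the junction fall within a codon. The open frame is a property of the sequence, and no translation was measured.

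**Figure D1:**
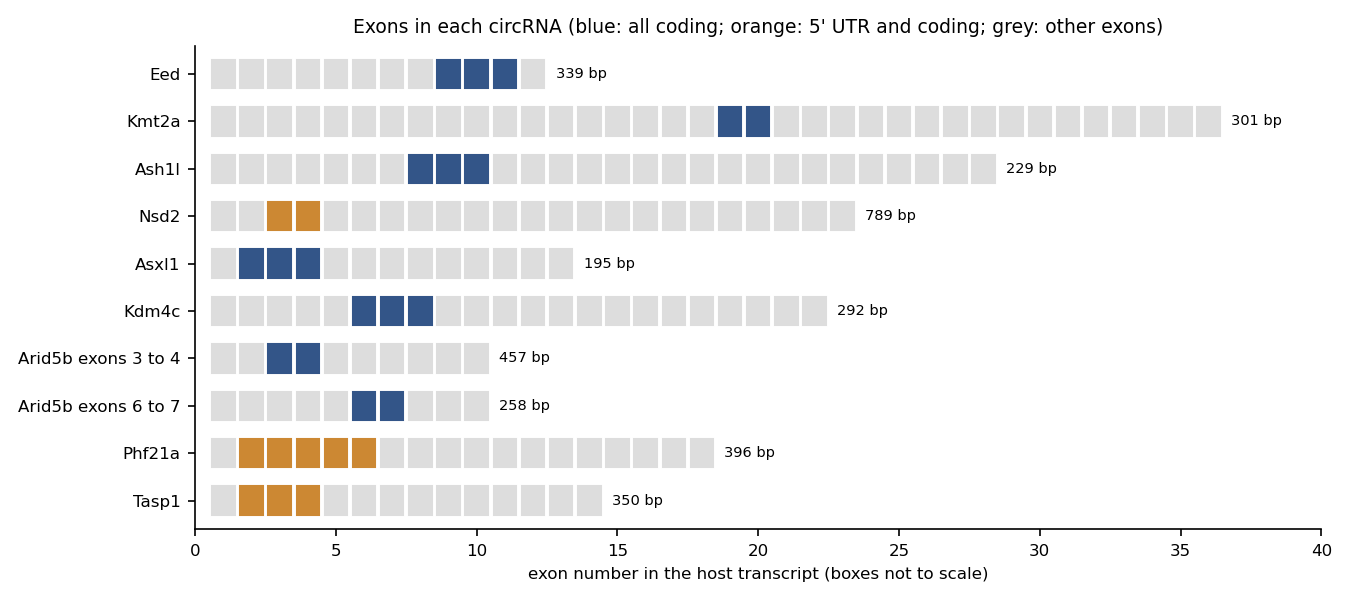
Position of each ring in its host transcript, with exon number on the x axis and 1 row for each of the 10 circRNAs. Coloured boxes are the exons in the ring (blue where all coding, orange where 5′ UTR and coding) and the spliced length stands at the right; Eed's ring lies near the end of its 12 exons, while those of Tasp1, Phf21a and Asxl1 begin at exon 2.

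Eed gave by far the most reads. Its circRNA (ENSMUSG00000030619.9, chr7:89955531-89962361, minus strand, GRCm38) holds coding exons 9 to 11 of 12, 339 bases that encode residues 287 to 400 of the 441-residue protein, a stretch of the WD40 propeller. The 3 exons are printed whole because the ring can only be told from the linear mRNA where the last of them meets the first. Capitals mark the 20 bases on each side of that joint.
Eed exon 9: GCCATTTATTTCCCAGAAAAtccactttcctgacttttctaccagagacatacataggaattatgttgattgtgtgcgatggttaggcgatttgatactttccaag
Eed exon 10: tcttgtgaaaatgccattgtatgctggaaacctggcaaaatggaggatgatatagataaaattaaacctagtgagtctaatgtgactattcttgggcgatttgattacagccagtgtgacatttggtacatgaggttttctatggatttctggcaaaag
Eed exon 11: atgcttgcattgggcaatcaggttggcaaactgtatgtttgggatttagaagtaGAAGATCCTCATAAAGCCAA

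The Eed circRNA was detected in all 18 libraries with 382 reads (1 in Control 1 and 56 in Cirrhosis-PTH 6 at the extremes) and ranked 7 of 474 by mean CPM. In Control it lay between 0.370 and 3.26 CPM with a median of 1.19. In Cirrhosis it lay between 2.86 and 8.70 CPM with a median of 4.21. In Cirrhosis-PTH it lay between 1.03 and 3.54 CPM with a median of 2.27. Of the 6 Cirrhosis livers 4 stood above every Control liver, and Control 6 alone reached into the Cirrhosis range. By CPM 4 of the 6 Cirrhosis-PTH livers stood below every Cirrhosis liver and 2 above every Control liver, so Cirrhosis-PTH lay between the others and overlapped both.

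As a share of each library's junction reads, a scale that does not use the total behind the CPM, Eed took 1.5 ± 0.426% in Cirrhosis, 0.921 ± 0.251% in Cirrhosis-PTH and 0.617 ± 0.429% in Control (mean ± SD over 6 mice each). Its rank within a library was 3 to 14 in Cirrhosis (median 4.5), 9 to 39 in Cirrhosis-PTH (median 12.0) and 4 to 170 in Control (median 39.5). The order of the groups was the same on all 3 scales. On the log2(CPM + 0.143) scale, where the pseudocount shrinks the change of scarce circRNAs, Cirrhosis minus Control was 1.80 ± 0.54 (SE), Cirrhosis-PTH minus Cirrhosis -1.11 ± 0.54 and Cirrhosis-PTH minus Control 0.69 ± 0.54. The first difference ran from 1.51 to 2.06 when each library was left out in turn. None of the 3 passed the adjusted threshold, and each pair of them shares a group, so they are not separate evidence.

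**Figure D2:**
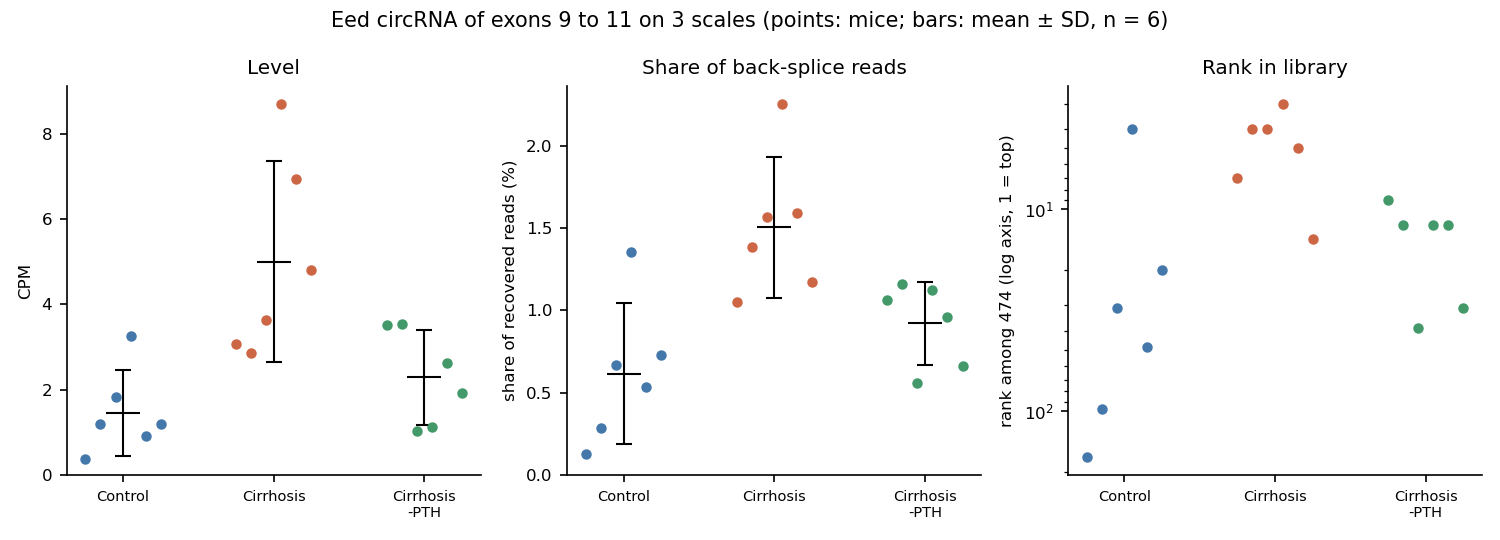
The Eed circRNA in 18 livers as CPM, as a share of junction reads in percent, and as its rank among the 474 circRNAs of the library (log axis, rank 1 at the top), by group; points are mice and bars the mean ± SD. Cirrhosis has the highest mean level and share and the best median rank. Points of Control 6 (3.26 CPM, rank 4) and of Cirrhosis-PTH 1 and 2 (3.50 and 3.54 CPM, ranks 9 and 12) lie within its range on all 3 scales. Cirrhosis-PTH 4 lies within it by share (1.12%) and rank (12), and Cirrhosis-PTH 5 by rank alone (12).

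The group means of circRNAs from macrophage hosts stood in the same order as those of Eed. The 3 measured circRNAs of the macrophage list (2 from Adgre1 and 1 from Mertk) summed to 0 to 1.02 CPM in Control livers, 0.184 to 6.76 in Cirrhosis livers and 0.149 to 1.19 in Cirrhosis-PTH, and the other 8 genes of the list, Csf1r and Cd68 among them, had no circRNA in the table. Cirrhosis 4 and Cirrhosis 5, the livers with the most Eed (8.70 and 6.94 CPM), had the highest sums, 4.59 and 6.76 CPM. Cirrhosis 6 had the lowest sum of its group, 0.184 CPM from 1 read, and stood at 4.80 CPM for Eed, above its group's median. The part of macrophage RNA in the Eed level was not tested.

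By the likeness rule (the highest Pearson r with Eed over 18 libraries on the log2 scale, among 464 circRNAs of other hosts), the nearest profiles were those of Msrb3, a methionine sulfoxide reductase gene, Tent4a, a poly(A) polymerase gene, and Farsa, which encodes a subunit of phenylalanyl-tRNA synthetase. Msrb3 (chr10:120825108-120852092) had r = 0.809 and Spearman's rho = 0.785, and r = 0.702 without the 2 libraries farthest from the Eed median, Control 1 and Cirrhosis 4. Tent4a (chr13:69512890-69515903) had r = 0.799, rho = 0.680 and r = 0.649 without those 2. Farsa (chr8:84864058-84864552) had r = 0.767, rho = 0.633 and r = 0.661 without them. Over all 464 the median r was 0.112 and the lowest -0.677. The points share their scaling total and the group differences, and within groups r ran from 0.211 (Msrb3 in Cirrhosis-PTH) to 0.877 (Tent4a in Cirrhosis), so these values describe likeness and carry no test.

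Tasp1 and Kmt2a are linked in biology: Tasp1 encodes taspase 1, the protease that cuts the KMT2A protein into its mature subunits. The Tasp1 circRNA (ENSMUSG00000039033.11, chr2:140042094-140057499, minus strand) joins exons 2 to 4 of 14 and includes the start codon, 282 of its 350 bases being coding. In Control it lay between 0.306 and 2.07 CPM with a median of 0.728, and every library had reads. In Cirrhosis it lay between 0 and 1.29 CPM with a median of 0.729, with Cirrhosis 4 at 0. In Cirrhosis-PTH 4 of 6 libraries were at 0 and the others at 0.274 and 0.397 CPM. Of the Cirrhosis-PTH libraries 5 lay below every Control library, and Cirrhosis-PTH 5 alone lay above the lowest, Control 7.

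Depth limits that reading. In the 4 Cirrhosis-PTH libraries at 0, a count of 0 allows 0.224 CPM (Cirrhosis-PTH 4) to 0.708 CPM (Cirrhosis-PTH 2), and 3 of these 4 floors exceed the lowest Control value. Pooled by reads, Tasp1 had 30 in Control livers, 27 in Cirrhosis livers and 13 in Cirrhosis-PTH, or 0.760, 0.681 and 0.178 CPM over each group's summed total. The mean was 0.920 ± 0.626 CPM in Control livers, 0.677 ± 0.512 in Cirrhosis livers and 0.112 ± 0.178 in Cirrhosis-PTH (n = 6 each), and the last was 0.0549 without Cirrhosis-PTH 5. The fitted log2 difference was -2.13 ± 0.73 for Cirrhosis-PTH against Control, -1.57 ± 0.73 against Cirrhosis, and -0.56 ± 0.73 for Cirrhosis against Control (95% interval -2.0 to 0.88). The size depended on the pseudocount: with 0.0357 CPM and with 1 CPM, Cirrhosis-PTH against Control was -3.39 and -0.75, and against Cirrhosis -2.50 and -0.55.

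The Kmt2a circRNA (ENSMUSG00000002028.13, chr9:44828784-44829271, minus strand) joins coding exons 19 and 20 of 36, residues 1784 to 1884 of 3963. It was detected in 12 of 18 libraries and averaged 0.448 ± 0.415 CPM in Control livers, 0.374 ± 0.473 in Cirrhosis livers and 0.291 ± 0.426 in Cirrhosis-PTH. Pooled by reads over each group's summed total, it stood at 0.405, 0.378 and 0.521 CPM in the same order, with Cirrhosis-PTH highest. Of its 69 reads 32 came from Cirrhosis-PTH 6, the deepest library, and without it the Cirrhosis-PTH mean was 0.130 CPM, while that of Cirrhosis was 0.216 CPM without Cirrhosis 3. Its 3 fitted differences lay between -0.63 and -0.25 with an SE of 0.72, each 95% interval held 0, and the sign of Cirrhosis-PTH against Cirrhosis turned with median centring, TMM or DESeq2. The groups overlapped through most of their range.

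Phf21a encodes a reader of unmethylated H3K4 in the complex of the demethylase LSD1. Its circRNA (ENSMUSG00000058318.15, chr2:92214049-92230724, plus strand) joins exons 2 to 6 of 18, of which only 153 of 396 bases are coding. In Control it lay between 0 and 2.07 CPM with a median of 0.745. In Cirrhosis it lay between 0 and 1.83 CPM with a median of 1.19. In Cirrhosis-PTH it lay between 0 and 1.05 CPM with a median of 0.112. All 3 groups held libraries at 0, 2 in Control livers, 1 in Cirrhosis livers and 3 in Cirrhosis-PTH. The fitted difference of Cirrhosis-PTH against Cirrhosis was -1.41 ± 0.73 (limma adjusted p = 0.633), that against Control -0.86 ± 0.73, and that of Cirrhosis against Control 0.55 ± 0.73, whose sign turned under 3 of 11 other settings. Over those settings the first ran from -2.07 to -0.57.

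Nsd2 and Ash1l encode methyltransferases of H3K36. The Nsd2 circRNA (ENSMUSG00000057406.16, chr5:33843112-33846267, plus strand) joins exons 3 and 4 of 23 and at 789 bases is the longest of the set. It encodes residues 1 to 254 of 1366. In Control it lay between 0 and 0.849 CPM with a median of 0.344. In Cirrhosis it lay between 0 and 2.37 CPM with a median of 0.567. In Cirrhosis-PTH it lay between 0 and 0.876 CPM with a median of 0.189. Cirrhosis was divided: Cirrhosis 4, Cirrhosis 5 and Cirrhosis 6 stood above every Control library, and the others at 0.212 CPM or less. On the log2 scale Cirrhosis minus Control was 0.46 ± 0.73, Cirrhosis-PTH minus Cirrhosis -0.89 ± 0.73 and Cirrhosis-PTH minus Control -0.43 ± 0.73. With each library left out, the difference of Cirrhosis against Control ran from 0.0377 (without Cirrhosis 5) to 0.87 (without Cirrhosis 1 or Cirrhosis 3). Without Cirrhosis 4 it was 0.0933. Under other settings it rose to 1.15 in edgeR with the total behind the CPM and turned to -0.12 with median centring. It turned to -0.42 with a replicate block by shared title number, a fit that leaves out Cirrhosis 4, Cirrhosis 5, Control 7 and Control 8.

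The Ash1l circRNA (ENSMUSG00000028053.13, chr3:89033259-89035481, plus strand; coding exons 8 to 10 of 28) averaged 0.233 ± 0.364 CPM in Control livers, 0.305 ± 0.415 in Cirrhosis livers and 0.242 ± 0.172 in Cirrhosis-PTH. It had 40 reads in 11 libraries, and its mean was 0.0971 CPM in Control without Control 3 and 0.153 in Cirrhosis without Cirrhosis 2. The groups differed by far less than the spread between mice, and no difference kept its sign throughout: that of Cirrhosis against Control turned with median centring, that between the CCl4 groups with edgeR, DESeq2 or a higher pseudocount, and that of Cirrhosis-PTH against Control with edgeR or DESeq2.

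Asxl1 encodes a partner of the deubiquitinase BAP1, which removes the Polycomb mark on histone H2A. Its circRNA (ENSMUSG00000042548.14, chr2:153352189-153357178, plus strand) is the shortest ring, 195 bases of coding exons 2 to 4 of 13. Control 1 stood at 2.96 CPM from 8 reads, and the other libraries of all groups at 0 to 0.670 CPM. The means were 0.608 CPM in Control livers, 0.190 in Cirrhosis livers and 0.134 in Cirrhosis-PTH. Without the highest library of each group (Control 1, Cirrhosis 1 and Cirrhosis-PTH 6) they were 0.138, 0.0942 and 0.0790 CPM. The fitted difference of Cirrhosis against Control was -0.37 ± 0.62, and 0.27 without Control 1.

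The remaining hosts are demethylase genes or their partners. KDM4C removes methyl groups from H3K9 and H3K36, and its circRNA (ENSMUSG00000028397.13, chr4:74306965-74315649, plus strand; coding exons 6 to 8 of 22) averaged 0.406 ± 0.382 CPM in Control livers, 0.319 ± 0.485 in Cirrhosis livers and 0.243 ± 0.339 in Cirrhosis-PTH. It was spread over 13 libraries with at most 7 reads in any. Without the highest library of each group (Control 1, Cirrhosis 5 and Cirrhosis-PTH 1) the means were 0.266, 0.127 and 0.116 CPM. Its 3 fitted differences were negative, and that between the CCl4 groups turned positive with median centring, TMM or DESeq2.

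ARID5B is a DNA-binding partner of the H3K9 demethylase PHF2, and its gene gave 2 rings from separate exons. The ring of coding exons 3 to 4 of 10 (ENSMUSG00000019947.10, chr10:68186026-68243229, minus strand, 457 bases) lay between 0 and 1.11 CPM in Control with a median of 0.339, and between 0 and 1.21 CPM in Cirrhosis with a median of 0.159. In Cirrhosis-PTH it was at 0 in 5 of 6 libraries and at 0.298 CPM in Cirrhosis-PTH 4. The ring of coding exons 6 to 7 (chr10:68126699-68128993, 258 bases) lay between 0 and 0.592 CPM in Control, 0 and 0.365 CPM in Cirrhosis, and 0 and 0.701 CPM in Cirrhosis-PTH, where 4 of 6 libraries had reads.

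In reads, exons 3 to 4 had 10 in Control livers, 12 in Cirrhosis livers and 4 in Cirrhosis-PTH, and exons 6 to 7 had 4, 3 and 15. The rings were seen together in 2 of 18 libraries, each alone in 7, and neither in 2, one of them the deepest, Cirrhosis-PTH 6. The fitted difference of Cirrhosis-PTH against Cirrhosis was -0.93 ± 0.63 for exons 3 to 4 and 0.92 ± 0.57 for exons 6 to 7, with limma adjusted p = 0.646 for each. Against Control it was -1.27 ± 0.63 and 0.68 ± 0.57. For exons 3 to 4 these ran from -2.26 to -0.30 and from -2.39 to -0.38 over 10 other settings. The opposite signs were seen after the values were known, rest on 26 and 22 reads in all, and the difference between the rings was not tested.

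**Figure D3:**
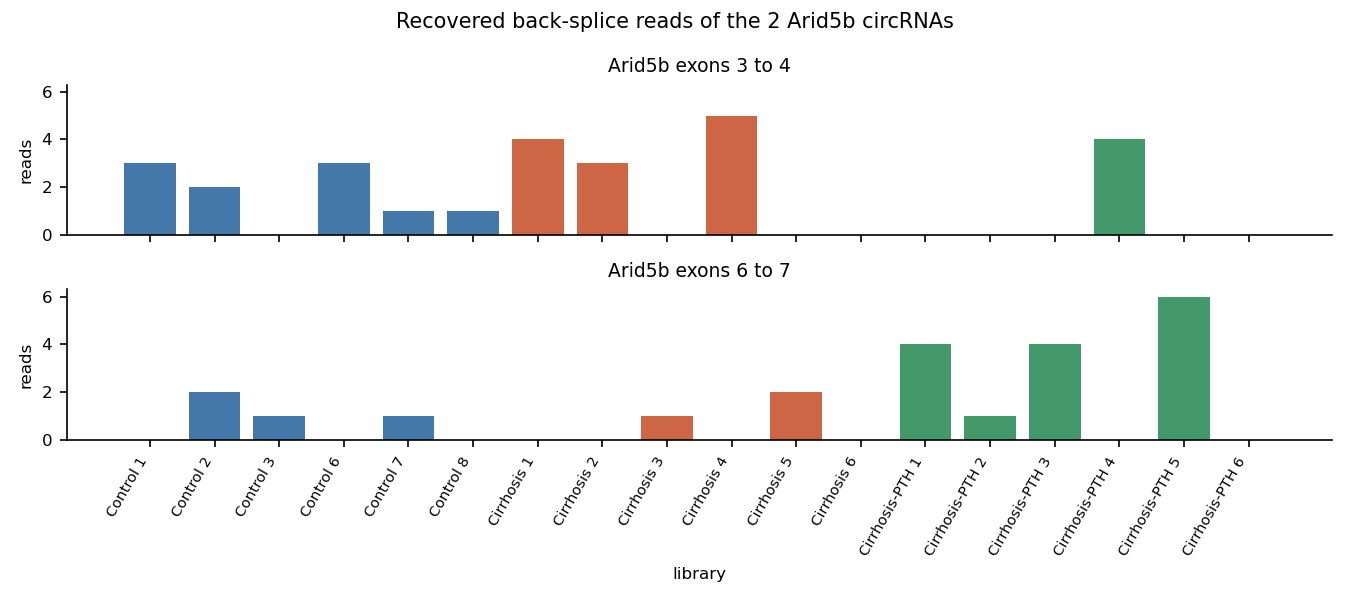
Junction reads of the 2 Arid5b circRNAs (y axis) in each of the 18 libraries (x axis), not scaled for depth. Reads of exons 6 to 7 are most frequent in Cirrhosis-PTH (15 of 22) and those of exons 3 to 4 in Control and Cirrhosis (22 of 26).

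Side by side the 10 circRNAs did not all move in 1 direction in any comparison. In Cirrhosis-PTH against Cirrhosis 2 were higher and 8 lower, where 42.0% of all circRNAs were higher. With median centring 5 were higher and 5 lower, where 63.9% of all were higher. In the plot of levels by library, 4 of 6 Cirrhosis livers lie above every Control liver for Eed, and 5 of 6 Cirrhosis-PTH livers lie below every Control liver for Tasp1. Without Eed, the other 9 summed to 4.32 ± 2.18 CPM per Control library, 4.22 ± 2.09 per Cirrhosis library and 2.01 ± 1.42 per Cirrhosis-PTH library. That sum includes Tasp1, whose differences were known when the hosts were chosen, at means of 0.920, 0.677 and 0.112 CPM. The only measured circRNAs of 2 marker lists, Tmem56 (stellate) and Ikzf1 (lymphocyte), were also lowest in Cirrhosis-PTH. Tmem56 averaged 3.53 CPM in Control (range 1.73 to 5.92), 3.74 in Cirrhosis (0.129 to 6.94) and 1.69 in Cirrhosis-PTH (1.28 to 2.24). Ikzf1 averaged 0.514 CPM (0.0849 to 0.959), 0.901 (0 to 2.19) and 0.373 (0 to 0.708) in that order. Of the other measured lists, Egfr (hepatocyte) was lowest in Cirrhosis, with means of 1.52, 1.23 and 1.34 CPM in the same order. The macrophage sum was lowest in Control, with means of 0.545, 3.07 and 0.788 CPM. The part of these cell types in the sum of the other 9 and in the Tasp1 level was not tested. The number of the 10 detected per library was 7 to 9 in Control livers, 5 to 9 in Cirrhosis livers and 4 to 7 in Cirrhosis-PTH. Over all 474 circRNAs it was 248 to 365, 223 to 376 and 263 to 405 in the same order. Eed's part of the reads of the 10 was 27.1 ± 15.6% in Control livers, 54.1 ± 7.82% in Cirrhosis livers and 54.0 ± 17.6% in Cirrhosis-PTH.

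**Figure D4:**
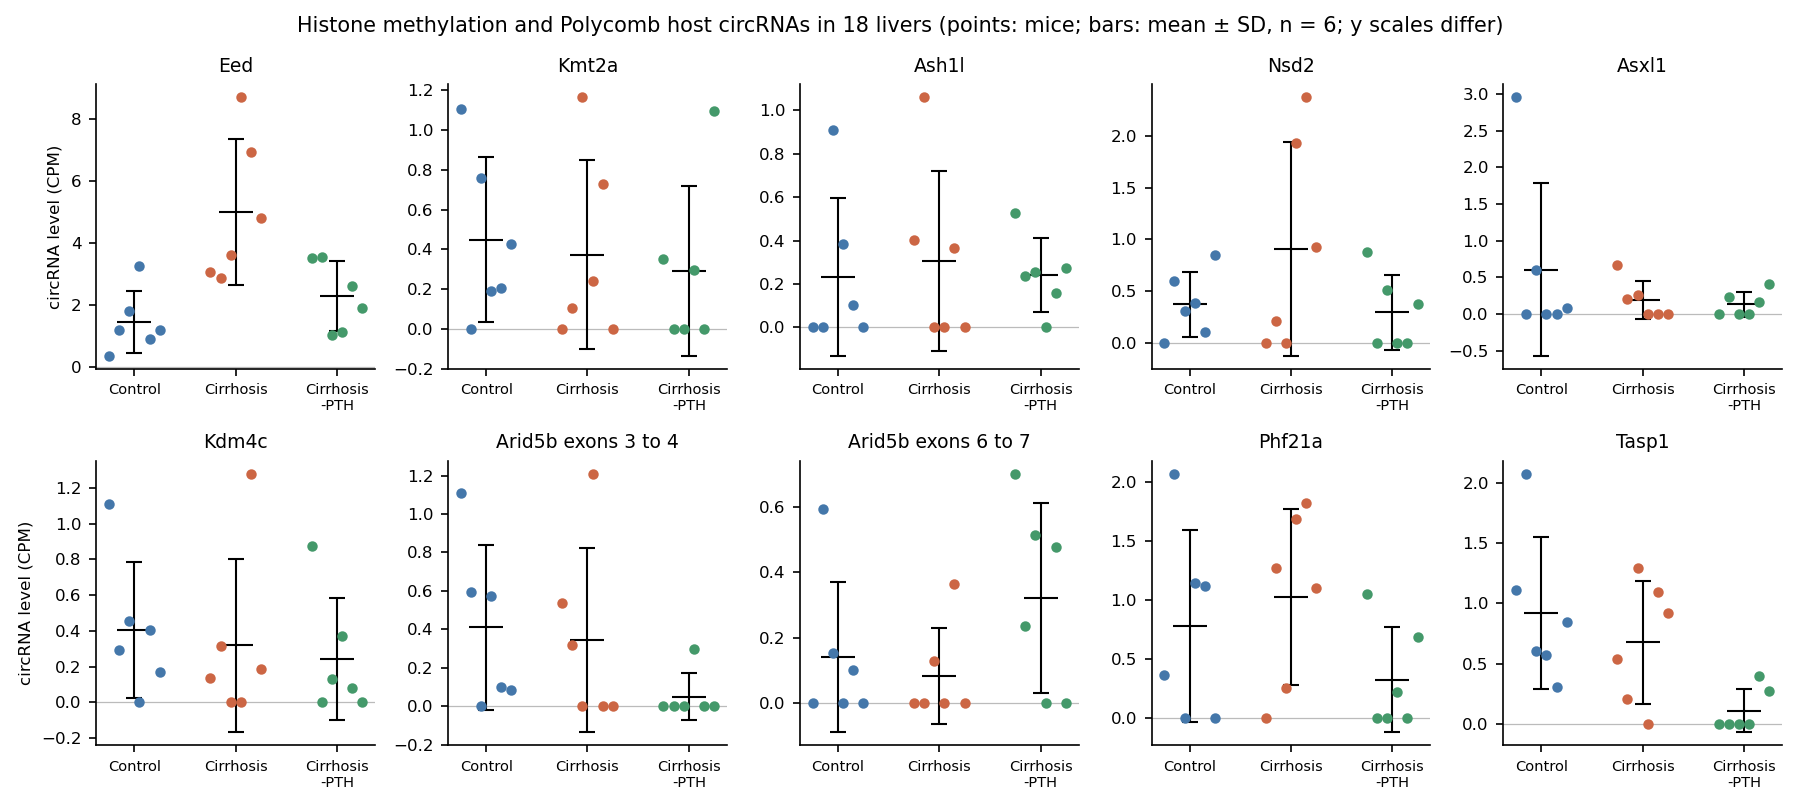
Level of each of the 10 circRNAs in CPM (y axis, a separate scale in each panel) by group; points are mice and bars the mean ± SD with n = 6. Most panels hold libraries at 0 in every group; in the Tasp1 panel 4 of 6 Cirrhosis-PTH points lie at 0 and no Control point does.

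In limma's test over all 474 circRNAs, 0 of the 10 passed at an adjusted p of 0.05 in any of the 3 comparisons, and 0% of all circRNAs passed each time. Their smallest adjusted p was 0.119 for Cirrhosis against Control, 0.624 between the CCl4 groups and 0.587 for Cirrhosis-PTH against Control, and no other setting or tool that gave an adjusted p called any of them (smallest 0.0503, with the filter of a mean of at least 0.5 CPM, in Cirrhosis against Control). At an unadjusted p under 0.05, Cirrhosis against Control had 1 of the 10 higher (Eed; 8.86% of all circRNAs) and 0 lower (3.38%). Cirrhosis-PTH against Cirrhosis had 0 higher (1.69%) and 2 lower (Eed and Tasp1; 5.49%). Cirrhosis-PTH against Control had 0 higher (1.48%) and 2 lower (Tasp1 and Arid5b exons 3 to 4; 3.80%). The groups of each of the 10 overlapped in every comparison, whereas those of 0.211%, 0.422% and 0.422% of all circRNAs did not. With circRNAs picked on known differences, nothing is read from these counts.

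By sign, 4 of the 10 were higher in Cirrhosis than in Control (56.1% of all circRNAs), 2 were higher in Cirrhosis-PTH than in Cirrhosis (42.0%) and 3 were higher in Cirrhosis-PTH than in Control (49.8%). The median log2 difference of the 10 was -0.29, -0.57 and -0.56, against 0.12, -0.17 and -0.01 over all 474. Centring each library on the circRNAs found in all 18 moved the median of all to -0.46, 0.34 and -0.07, and left 1, 5 and 3 of the 10 higher. Only Eed kept its sign among those higher in Cirrhosis than in Control under that scaling, with 1.17 to 1.90 over the 11 other settings. With the replicate block the Eed difference was 1.33 (limma adjusted p = 0.616). That fit leaves out Cirrhosis 4 and Cirrhosis 5, the livers with the most Eed, along with Control 7 and Control 8.

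**Figure D5:**
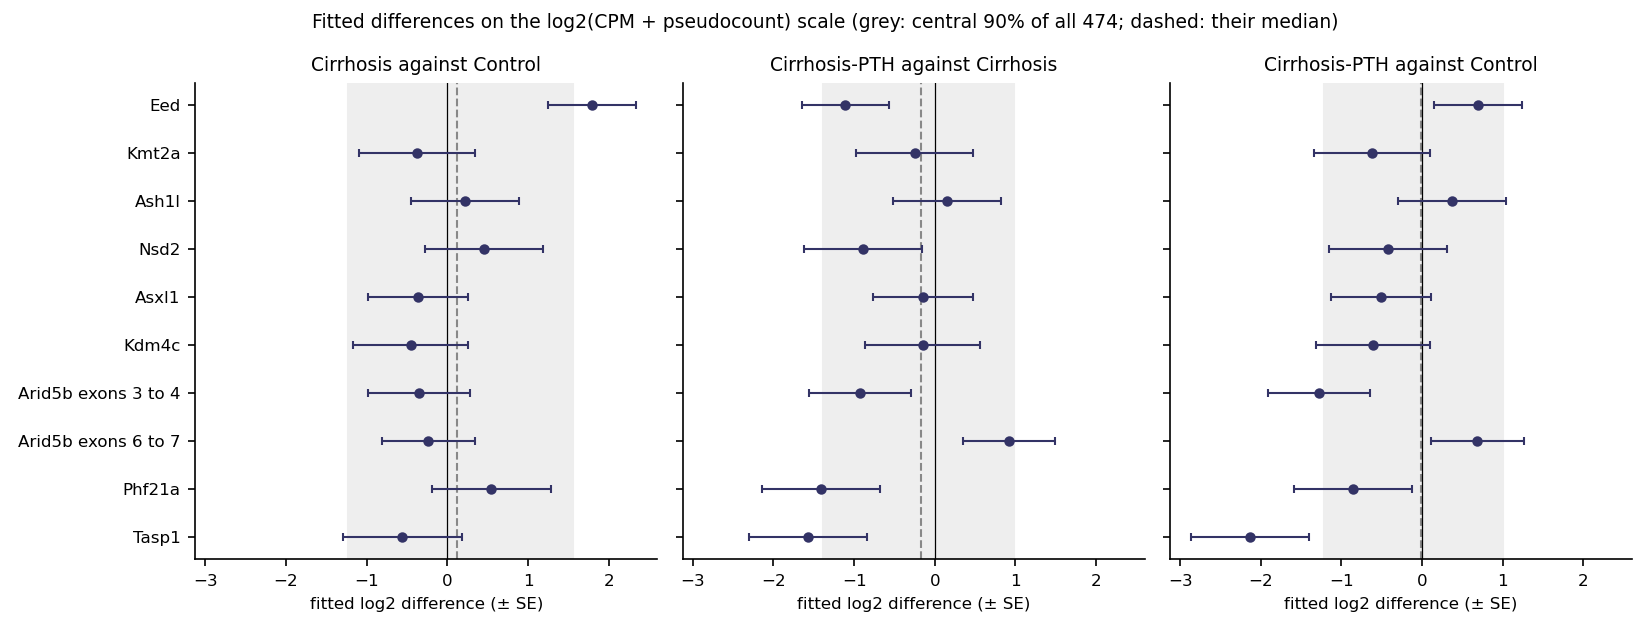
Fitted log2 difference ± SE (x axis) of each circRNA in the 3 comparisons, with the central 90% of all 474 in grey and their median dashed. Eed lies right of the grey band for Cirrhosis against Control (1.80), Tasp1 left of it in both Cirrhosis-PTH comparisons (-1.57 and -2.13), and Phf21a (-1.41) and Arid5b exons 3 to 4 (-1.27) at its left edge in one each.

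Of 143 other genes of histone methylation and Polycomb, 7 had a circRNA in the table, 1 each: Uty, Ehmt1, Mga, Ncoa6, Kdm5c, Rbbp4 and Prmt9, with 19 to 66 reads. None of the 7 passed limma's adjusted test in any comparison. Of the 7, 4 were higher and 3 lower in Cirrhosis than in Control, where 56.1% of all circRNAs were higher. In Cirrhosis-PTH 5 were higher and 2 lower than in Cirrhosis (42.0% of all higher), and 6 higher and 1 lower than in Control (49.8%). The median log2 difference of the 7 was 0.14, 0.51 and 0.69 in that order. That of the 10 circRNAs followed here was -0.29, -0.57 and -0.56, of opposite sign each time. The most abundant of the 7 was Uty, a Y-linked relative of the H3K27 demethylase genes. It stood at 0.158 ± 0.235 CPM in Control livers, 0.411 ± 0.564 in Cirrhosis livers and 0.554 ± 0.477 in Cirrhosis-PTH. Ehmt1, an H3K9 methyltransferase gene, stood at 0.163 ± 0.144, 0.195 ± 0.265 and 0.710 ± 0.312 CPM, and Mga, of a variant PRC1, at 0.255 ± 0.353, 0.247 ± 0.225 and 0.449 ± 0.290 CPM.

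Of the PRC2 genes besides Eed, only Rbbp4, a histone-binding subunit, was measured, at 0.440 ± 0.395 CPM in Control livers, 0.163 ± 0.212 in Cirrhosis livers and 0.0373 ± 0.0913 in Cirrhosis-PTH from 19 reads. Its order of groups was not that of Eed. Kdm5c, an H3K4 demethylase gene, stood at 0.0490 ± 0.0810, 0.608 ± 0.863 and 0.236 ± 0.291 CPM, with a fitted difference of 1.3 ± 0.63 for Cirrhosis against Control (limma adjusted p = 0.381). The Ehmt1 difference was 1.59 ± 0.72 for Cirrhosis-PTH against Cirrhosis (limma adjusted p = 0.624) and 1.53 ± 0.72 against Control (0.815), and that of Rbbp4 was -1.48 ± 0.60 for Cirrhosis-PTH against Control (0.688). No linear mRNA of any host was analysed here, so a ring's level cannot be set against that of its gene.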

How the data were processed

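Total RNA of each liver was depleted of ribosomal RNA and sequenced, per the labels' protocols. The authors deposited 1 table of circRNA levels in CPM. The junctions carry CIRI names, per the file headers, and the submitters' processing notes list GRCm38, Trim Galore, cutadapt 4.2, Bowtie2, Bowtie 1.3.1, StringTie 2.1.5 and HISAT2 2.2.1 without roles. What the CPM is scaled to was not given in the sources used here. All 5886 values above 0 (100%) were whole multiples of 1 read within 0.01, which gave the recovered reads and a total of 2706146 to 29164326 per library. Junction reads carry no molecular identifiers, so floors cover counting error only.

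Hosts, exons and sequences came from GENCODE M21. The table has no strand, so strand is the host's. Groups were compared with limma-trend (limma 3.58.1, R 4.3.3) on log2(CPM + 0.143), a pseudocount equal to the typical lowest non-zero CPM of a library, in 1 model of 18 libraries, 2-sided, Benjamini-Hochberg adjusted over 474 circRNAs. The filter (above 0 in at least 6 libraries) removed 0. edgeR 4.0.16 and DESeq2 1.42.0 on the recovered reads, other pseudocounts, a mean filter, median centring, 2-group fits, a replicate block and each library left out were alternatives. The replicate block kept only title numbers found in both groups, which were 1, 2, 3 and 6 in the comparisons with Control. The code was tested on simulated data. Python 3.11.15 with pandas 2.3.3 made the summaries.

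Full values are given for circRNAs with a mean of at least 0.5 CPM or an unadjusted p under 0.05 in any comparison, which names Eed, Nsd2, Phf21a, Tasp1 and Arid5b exons 3 to 4. Of the 143 listed genes, the 3 of highest mean and those with an unadjusted p under 0.05 are named. The members, lists and rules were chosen with earlier results of these data known.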

Additional observations from a re-analysis of the deposited data

Results flagged for a closer look

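A single liver stood apart from the other 5 of its group in 6 of the 30 combinations of circRNA and group, by a gap to the next value that exceeded Dixon's 95% critical share of the group's range. Chance alone gives about 1 in 20, and groups with several libraries at 0 pass more easily. Kmt2a stood at 1.10 CPM in Cirrhosis-PTH 6, from 32 reads, where the next library was at 0.350. Asxl1 stood at 2.96 CPM in Control 1, from 8 reads, with the next at 0.607. Kdm4c stood at 1.28 CPM in Cirrhosis 5, from 7 reads, with the next at 0.318. Arid5b exons 3 to 4 stood at 0.298 CPM in Cirrhosis-PTH 4, from 4 reads, with the other 5 at 0. Arid5b exons 6 to 7 stood at 0.592 CPM in Control 2 and at 0.365 CPM in Cirrhosis 5, from 2 reads each. The Kmt2a value has the deepest library behind it and the Asxl1 value the shallowest; the cause of neither was tested.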

How the results depend on the processing

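Where an alternative gave one of the 10 circRNAs an adjusted p, it was above 0.05. The filter of a mean of at least 0.5 CPM left 4 of the 10 to test, and DESeq2 gave no adjusted p for 7 of the 10 in Cirrhosis against Control. Over the whole table, where 0 passed, the count of calls was 2 in Cirrhosis against Control with the filter of a mean of at least 0.5 CPM, 2 with median centring and 1 in DESeq2. In Cirrhosis-PTH against Cirrhosis it was 1 in edgeR with either library size and 1 in DESeq2. With each library left out it was 0 to 1 in both comparisons. Fitted differences of single circRNAs kept their sign in 290 of 312 values under other settings and in 343 of 360 with a library left out. Some of the 312 could not turn. Dropping the filter, the filter on the mean and the 2-group fits leave a circRNA's difference of group means unchanged. So does the replicate block between the CCl4 groups. The cause of the turns was not tested. Eed, Tasp1 and Arid5b exons 3 to 4 kept theirs in all 3 comparisons.

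In Cirrhosis against Control, median centring turned Ash1l to -0.36, Nsd2 to -0.12 and Phf21a to -0.0318, DESeq2 turned Phf21a to -0.0418, and the replicate block turned Nsd2 to -0.42 and Phf21a to -0.26. In Cirrhosis-PTH against Cirrhosis, Ash1l turned to -0.0167 with 4 times the pseudocount, -0.0287 with 1 CPM, -0.44 in edgeR with the total behind the CPM, -0.45 in edgeR with TMM and -0.45 in DESeq2. Median centring, edgeR with TMM and DESeq2 turned Kmt2a to 0.26, 0.17 and 0.10 and Kdm4c to 0.36, 0.20 and 0.20, and median centring turned Asxl1 to 0.37. In Cirrhosis-PTH against Control, Ash1l turned to -0.0587 in edgeR with the total behind the CPM, -0.0577 with TMM and -0.30 in DESeq2, and the replicate block turned Nsd2 to 0.25. In the comparisons with Control the block held fewer libraries, only those numbered 1, 2, 3 and 6.

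With each library left out in turn, differences that turned ran from -0.17 to 0.61 (Ash1l), -0.69 to 0.27 (Asxl1) and -0.51 to 0.10 (Arid5b exons 6 to 7) in Cirrhosis against Control. In Cirrhosis-PTH against Cirrhosis they ran from -0.66 to 0.12 (Kmt2a), -0.0767 to 0.54 (Ash1l), -0.39 to 0.18 (Asxl1) and -0.51 to 0.27 (Kdm4c), and in Cirrhosis-PTH against Control from -0.76 to 0.13 (Asxl1).

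The title numbers are shared by 4 or 6 libraries of each pair of groups, and same-numbered libraries deviated together with r of -0.057 to 0.082. In Cirrhosis against Control, numbers 1, 3 and 6 deviated most alike with their own number, and number 2 did not. Between the CCl4 groups only number 4 did so, and in Cirrhosis-PTH against Control no number did. The labels do not state whether the numbers pair mice, and correlations over such sparse counts cannot decide it. With the replicate block, which used only the shared numbers, 0 circRNAs were called in each comparison. Depth limits the values: most outside Eed rest on a few reads, and Eed itself rests on 1 read in Control 1 and 4 in Control 2.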
